A study of Mus musculus with 12 samples.

Results

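The open chromatin of untreated mouse myeloid progenitors was described from ATAC-seq, in which the Tn5 transposase inserts adapters into accessible DNA and fragments pile up where chromatin is open. The cells are labelled granulocyte-monocyte progenitors from C57BL6 bone marrow that carry ER-HOXA9, in which the homeobox protein HOXA9 is joined to the estrogen receptor. Their medium held beta-estradiol (0.5 micromolar), the ligand of the receptor, and stem cell factor, and both libraries were taken on day 0 with no agent added (Day0 replicates 1 and 2). The labels give the fusion no promoter or clone number, and all 12 libraries of the series carry it. Open regions were defined as peaks that overlapped between these 2 libraries. This gave 41682 shared regions among the 55218 called in either Day0 library, and 73156 regions were called in any of the 12 libraries.

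HOXA9 binds DNA with cofactors of the MEIS and PBX families and holds early myeloid cells in a dividing, undifferentiated state. As long as beta-estradiol is present, such a fusion protein is active in the nucleus, and cells that carry it keep growing as progenitors. Granulocyte-monocyte progenitors are run by a small set of transcription factors, among them PU.1 (Spi1), C/EBP alpha (Cebpa), IRF8 and GFI1, and they make the enzymes of primary granules before they become neutrophils or monocytes.

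Promoter windows of 7 genes show the kinds of start sites met below. Each runs from 250 bases before to 50 bases after the gene start on the gene's own strand, 300 bases in all, from RefSeq on GRCm38.p6, the mm10 assembly. Capitals mark matches to the short motifs listed further on. Mpo (chr11:87793534-87793833, plus strand) and Ms4a3 (chr19:11640802-11641101, minus strand) are CpG-poor starts of granule and progenitor genes that lay in a shared region. Elane (chr10:79886062-79886361, plus strand) is a granule gene whose window held no called peak. Cebpa (chr7:35119043-35119342, plus strand) and Irf8 (chr8:120736108-120736407, plus strand) are CpG-rich open starts of transcription factors. Aurka (chr2:172370521-172370820, minus strand) had the highest fold enrichment among listed genes with the ETS letters in their window. Hoxa9 (chr6:52227321-52227620, minus strand) held no called peak.
Mpo: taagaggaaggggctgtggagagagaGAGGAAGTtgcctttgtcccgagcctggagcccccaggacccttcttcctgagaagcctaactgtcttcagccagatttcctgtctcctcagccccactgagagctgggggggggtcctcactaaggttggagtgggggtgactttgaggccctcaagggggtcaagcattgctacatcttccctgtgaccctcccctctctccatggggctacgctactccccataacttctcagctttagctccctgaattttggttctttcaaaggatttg
Ms4a3: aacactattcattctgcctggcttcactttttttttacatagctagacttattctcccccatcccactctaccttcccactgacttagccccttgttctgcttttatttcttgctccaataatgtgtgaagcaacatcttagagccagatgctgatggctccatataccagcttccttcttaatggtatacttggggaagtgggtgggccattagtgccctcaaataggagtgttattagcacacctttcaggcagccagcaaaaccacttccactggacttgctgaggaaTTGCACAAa
Elane: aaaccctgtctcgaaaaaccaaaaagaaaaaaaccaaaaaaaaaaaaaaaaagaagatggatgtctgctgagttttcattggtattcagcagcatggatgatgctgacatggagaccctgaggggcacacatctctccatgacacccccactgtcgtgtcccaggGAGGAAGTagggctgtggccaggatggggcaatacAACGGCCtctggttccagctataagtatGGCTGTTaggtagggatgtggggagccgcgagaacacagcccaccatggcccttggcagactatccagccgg
Cebpa: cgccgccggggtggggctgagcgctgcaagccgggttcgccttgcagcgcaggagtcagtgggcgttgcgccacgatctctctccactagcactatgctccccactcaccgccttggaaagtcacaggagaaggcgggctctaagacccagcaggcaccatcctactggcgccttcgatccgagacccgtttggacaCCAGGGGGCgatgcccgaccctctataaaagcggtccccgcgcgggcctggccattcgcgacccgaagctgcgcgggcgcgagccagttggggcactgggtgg
Irf8: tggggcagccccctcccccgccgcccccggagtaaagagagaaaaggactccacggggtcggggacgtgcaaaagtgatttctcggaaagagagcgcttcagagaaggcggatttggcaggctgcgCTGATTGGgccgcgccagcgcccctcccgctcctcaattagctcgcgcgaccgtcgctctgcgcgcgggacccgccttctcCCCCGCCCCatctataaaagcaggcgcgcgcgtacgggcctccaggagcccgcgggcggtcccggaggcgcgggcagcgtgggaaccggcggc
Aurka: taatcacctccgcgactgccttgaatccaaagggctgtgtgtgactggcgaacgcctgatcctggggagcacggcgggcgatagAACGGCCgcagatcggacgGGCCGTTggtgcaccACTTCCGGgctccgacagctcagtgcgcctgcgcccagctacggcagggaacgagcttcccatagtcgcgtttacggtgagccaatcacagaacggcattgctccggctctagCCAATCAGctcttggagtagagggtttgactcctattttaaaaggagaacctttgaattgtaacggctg
Hoxa9: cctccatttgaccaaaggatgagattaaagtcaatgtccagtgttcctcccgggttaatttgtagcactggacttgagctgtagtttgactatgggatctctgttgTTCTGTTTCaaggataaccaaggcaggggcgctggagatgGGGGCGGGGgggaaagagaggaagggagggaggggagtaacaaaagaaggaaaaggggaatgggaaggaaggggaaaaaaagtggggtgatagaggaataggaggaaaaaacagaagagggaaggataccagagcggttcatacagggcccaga

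The Day0 libraries differed in depth. Replicate 1 held 66790 summits in 53105 peaks covering 49252.8 kb, and replicate 2 held 56013 summits in 44447 peaks covering 38584.4 kb. Read totals are not in the peak lists, so the number of fragments stacked at each summit, its pileup, was recovered from the deposited fold and p-value. The smallest local background was 4.55 fragments in replicate 1 and 2.44 in replicate 2, a ratio of 1.86, which was taken as the ratio of depths. Of the peaks of replicate 1, 78.7% lay in shared regions, against 95.0% of those of replicate 2. Regions missed by the other library were weak. When the regions of replicate 1 were split into 4 equal groups by pileup, 39.5% of the lowest group (14 to 31 fragments) and 99.7% of the highest (184 to 2099) were called in both libraries. In replicate 2 these shares were 82.4% and 99.96%. At this depth, a weak open region missing from a list cannot be told from closed chromatin.

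Across the 41682 regions, Pearson's r of log2 fold enrichment was 0.913 and Spearman's rho of fold enrichment 0.914, and r of log2 pileup was 0.982, the points coming from the same 2 libraries and sharing their depths. The SD of the log2 pileup ratio was 0.283, and counting error alone gives 0.296. In the highest of 4 equal groups by pileup the SD was 0.141, against 0.123 from counting error, and over all regions the chi-square of the pileups per region was 1.09. In the lowest group it was 0.391, against 0.446 from counting error. These spreads cover regions called in both libraries, which leaves out those called in only 1, so they do not measure the full difference between the libraries. The libraries were kept as 2 samples, which the design text calls biological replicates. Fold enrichment differed more than 2-fold at 56 regions, and the highest summits of a region lay a median of 29 bases apart.

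**Figure D1:**
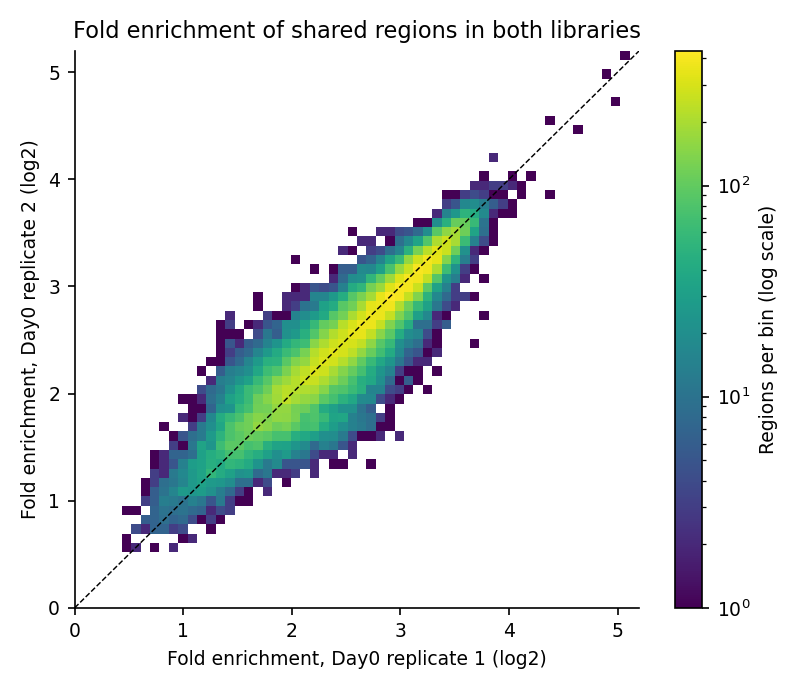
Fold enrichment of the 41682 shared regions in Day0 replicate 1 (x axis, log2) and Day0 replicate 2 (y axis, log2), with colour for the number of regions per bin on a log scale and a dashed line of equality. The regions lie along the line (Pearson's r of 0.913), and 13 regions reach a fold of 15 or more in both libraries.

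A shared region was typically about a kilobase wide with a single summit. The median width was 1023 bases (range 257 to 4765), and 5.33% of shared regions were over 2000 bases wide. These are widths of the joined peaks of both libraries. The bases called in a single library had a median of 988 per region in replicate 1 and 817 in replicate 2. The fold enrichment of a region, its highest summit over the local background as the authors' peak caller gives it, had a median of 5.81 in replicate 1 and 5.72 in replicate 2. The summit pileup had a median of 91 fragments in replicate 1 and 52 in replicate 2, or 19.99 and 21.3 times the smallest background. Regions called in 1 library only were weaker and narrower, with a median fold of 3.24 in replicate 1 and 3.47 in replicate 2 and a median width of 394 bases. Both libraries gave a single summit at 69.7% of shared regions and the same number of summits at 77.7%. The 5599 regions with 2 or more summits in both libraries were wider, with a median of 1746 bases against 902 bases for the 29062 single-summit regions. Their folds were slightly lower, at 5.33 in replicate 1 and 5.30 in replicate 2, against 6.12 and 6.02 for single-summit regions. Their median pileups were higher, at 160 fragments in replicate 1 and 89 in replicate 2, against 89 and 51.

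Promoters were the strongest class. Of the shared regions, 25.8% (10762) lay within 1000 bases of a protein-coding gene start, 37.6% (15655) elsewhere in a gene body and 36.6% (15265) between genes. Of regions called in 1 library only, 3.70% in replicate 1 and 2.95% in replicate 2 were promoters. Promoter regions had a median fold of 8.11 in replicate 1 and 7.89 in replicate 2, against 5.26 and 5.18 for the other shared regions. Their pileups differed more, with medians of 357 and 192 fragments at promoters, against 64 and 37 elsewhere. The local background was also higher at promoters, at a median of 41.7 fragments in replicate 1 against 11.1 elsewhere, and fold is divided by it. Ranked by fold, promoters made up 9.26%, 13.6%, 24.7% and 55.7% of 4 equal groups of shared regions from lowest to highest, and ranked by pileup 4.20%, 7.10%, 20.5% and 71.4%. Promoter regions were wider, with a median of 1312.5 bases against 911 bases.

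**Figure D2:**
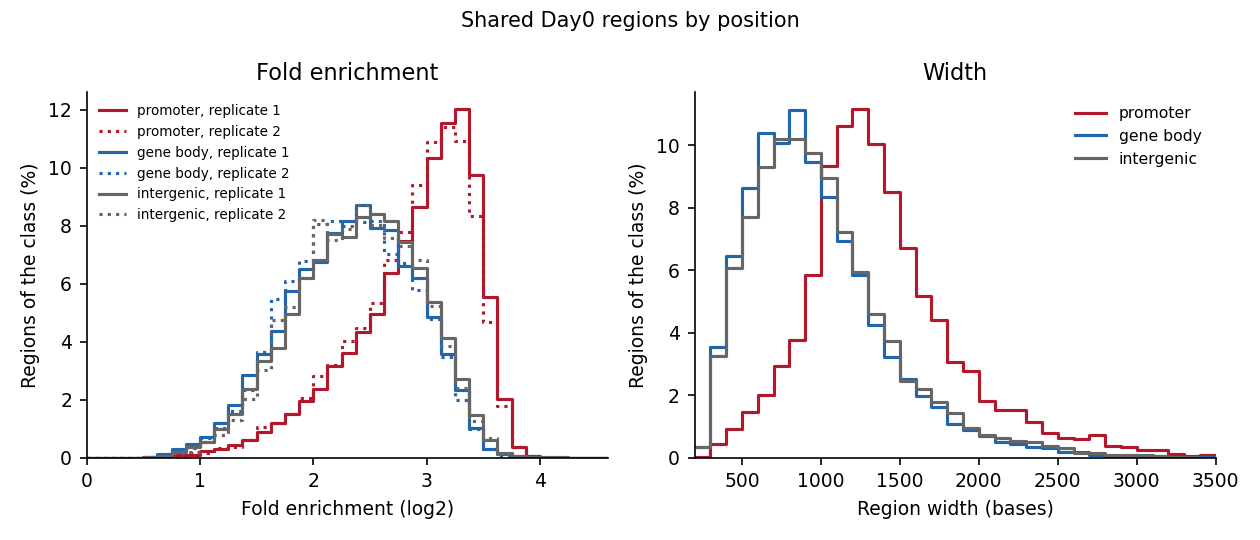
Distribution of fold enrichment (left, log2, both libraries) and of region width (right, bases, drawn up to 3500) for shared regions at promoters (red), in gene bodies (blue) and between genes (grey), as a percentage of each class. Promoter regions sit to the right in both panels, while gene-body and intergenic regions nearly coincide.

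At promoters the summit sat on the gene start. Over 10356 promoter regions with a known strand, the highest summit lay a median of 19 bases downstream of the start in replicate 1 and 15 bases in replicate 2. It lay within 250 bases of the start in 80.8% and 79.1% of them. Regions outside promoters were mostly far from a start: their median distance was 23165 bases, 25.02% lay within 10 kb and 12.1% over 100 kb away.

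**Figure D3:**
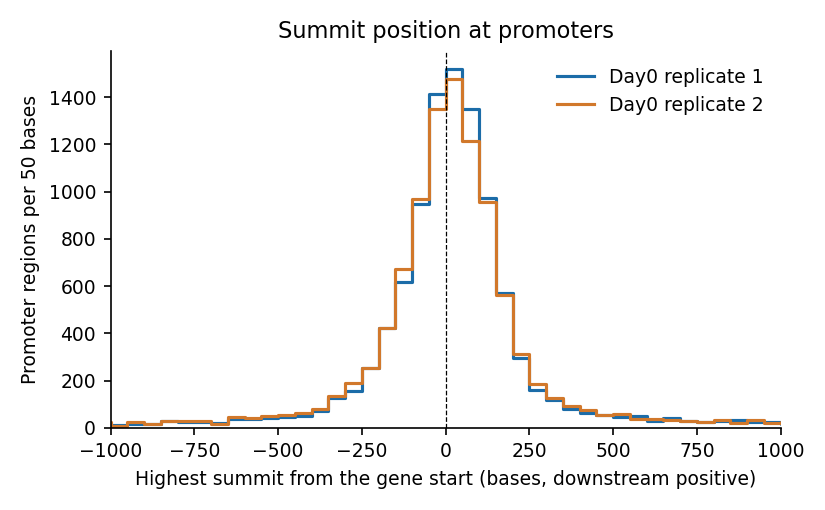
Position of the highest summit relative to the gene start (x axis, bases, downstream positive) for promoter regions of Day0 replicate 1 (blue) and replicate 2 (orange), in bins of 50 bases. Both curves peak in the bins beside the start, and 80.8% (replicate 1) and 79.1% (replicate 2) of summits lie within 250 bases of it.

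Most markers of the labelled cell type were open. The 13 granulocyte-monocyte progenitor markers checked were Mpo, Elane, Prtn3, Ctsg, Ms4a3, Kit, Cd34, Csf1r, Csf3r, Cebpa, Spi1, Irf8 and Gfi1. A region lay within 1000 bases of the start of 12 of them. The exception was Elane, neutrophil elastase, whose nearest region ended 1215 bases away. Among the 12, the regions at the starts of Csf1r (fold 1.896 and 2.62) and Prtn3 (2.01 and 1.70) had low folds. Over all coding genes with a RefSeq promoter entry, 9414 of 17492 (53.8%) had such an open promoter, and 10 of the 11 markers with such an entry did. The regions of the open coding genes had a median fold of 8.33 and 8.11 and a median pileup of 384 and 207 fragments. Values joined by "and" are here and below those of replicate 1 and then replicate 2, and gene lists are counted over the genes with such an entry.

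Every counted myeloid transcription factor gene had an open promoter (24 of 24), and all 24 were also the nearest gene of at least 1 region outside promoters, as were 48.5% of all coding genes. The median number of such distal regions was 6 per factor gene, against 0 over all genes. The median gene length was 18.2 kb in the list and 16.9 kb over all genes, and the distance to neighbouring genes was not tested. Folds at these starts were not high, with list medians of 6.21 and 5.84, but pileups were, at 446 and 253.

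Cebpa, which drives granulocyte and monocyte fate, had a region 2528 bases wide over its start with a fold of 5.28 and 5.18 and a pileup of 531 and 290. Of the 11 shared regions within 60 kb of that start, the one with the next highest pileup (445 and 226, fold 4.06 and 3.86) had its summit 37.4 kb downstream (chr7:35156242-35157557). That is the distance of a known myeloid enhancer of mouse Cebpa. Irf8, which directs progenitors to monocytes and dendritic cells, had a fold of 9.35 and 7.47 at its start with a pileup of 207 and 84. Higher pileups stood 50.2 kb upstream (407 and 229, chr8:120685243-120686642) and 39.1 kb upstream (287 and 180), both nearer to the start of Cox4i1. A region 56.6 kb downstream (149 and 81) was also called. Enhancers of mouse Irf8 are known about as far upstream and downstream as the first and last of these.

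Spi1, which encodes PU.1, had 4 regions nearest to it. The region at the RefSeq start, which belongs to a long transcript, had a fold of 5.18 and 5.12 and a pileup of 422 and 227 (chr2:91082331-91083715). A region inside the annotated gene, 14.4 kb downstream, had a fold of 7.22 and 6.61 and a pileup of 361 and 177 (chr2:91096434-91098436). Which of these regions lies at the Spi1 start used in these cells was not tested. Gfi1, a repressor that recruits LSD1 and is needed for neutrophil formation, had 12 shared regions within 60 kb of its start. The start itself lay in a broad region of 3441 bases with 4 summits in replicate 1 and 5 in replicate 2, a pileup of 634 and 360, and a fold of only 3.73 and 3.85. The region 23.9 kb upstream of Gfi1 had the higher fold, 10.6 and 10.9, at a pileup of 548 and 342. Runx1 had 27 nearest regions, Id2 had 24 and Runx3 had 21.

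**Figure D4:**
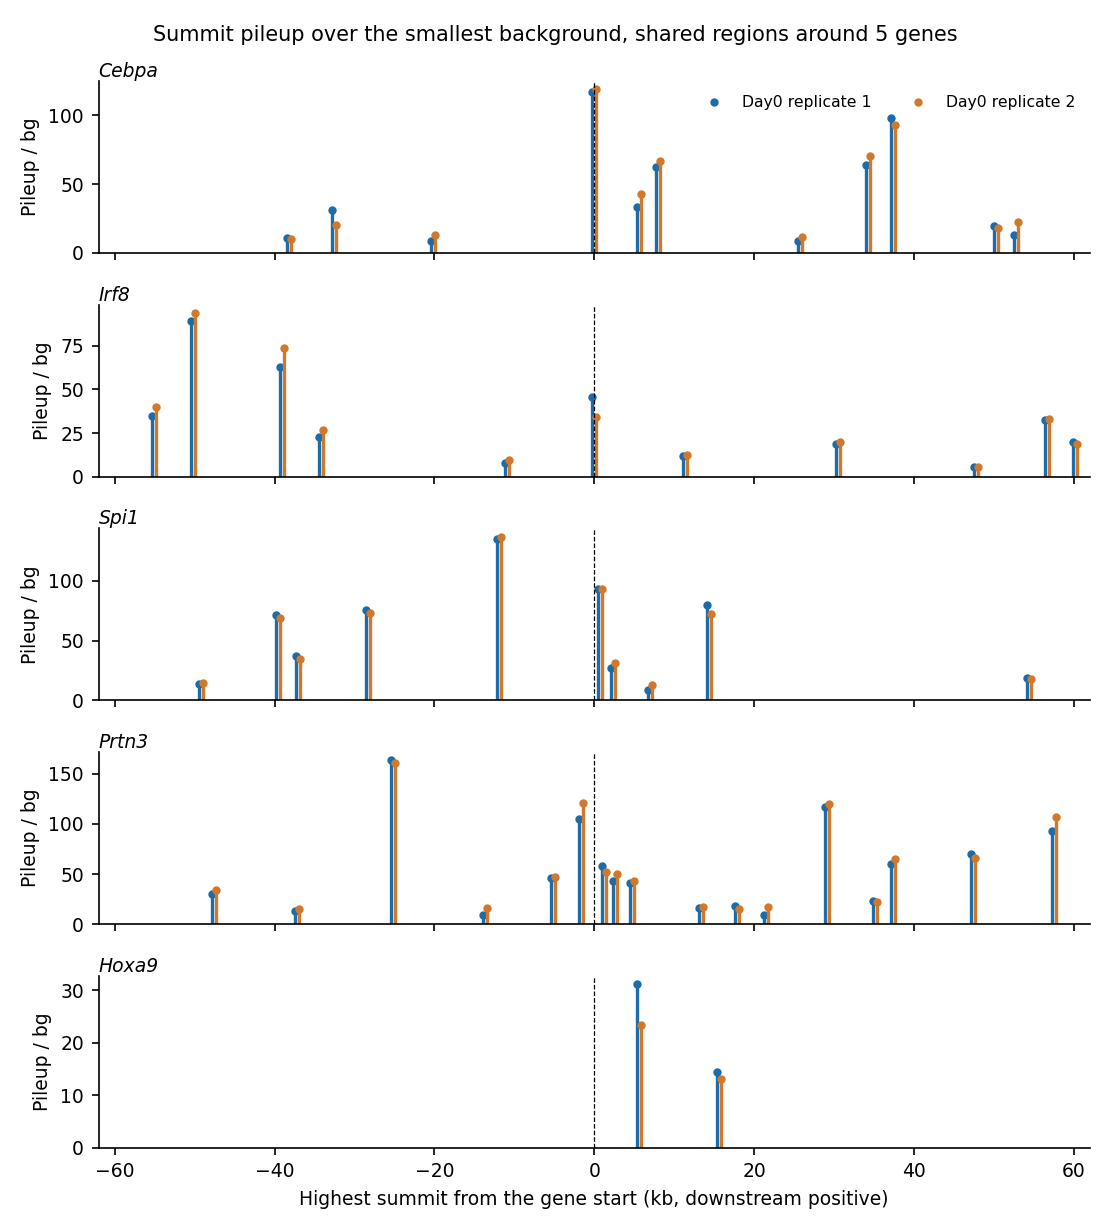
Summit pileup divided by the library's smallest background (y axis, own scale in each panel) for shared regions within 60 kb of the start of Cebpa, Irf8, Spi1, Prtn3 and Hoxa9, against the distance of the highest summit from the start (x axis, kb, downstream positive). Lines of Day0 replicate 1 (blue) and replicate 2 (orange) are drawn 0.25 kb to either side of their position, and Hoxa9 has 2 regions while the other genes have 10 to 17.

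The self-renewal genes around HOXA9 were open in part. Of 21 counted genes, 14 had an open promoter. Among them were Meis1, the HOXA9 cofactor (fold 5.16 and 5.72, pileup 249 and 150), Myb, a factor that keeps progenitors dividing (6.18 and 6.03, 495 and 266), and Sox4 (4.38 and 4.38, 426 and 238). The genes that were not open included most of the Hoxa cluster itself. Over 96.0 kb and 9 matched Hoxa genes there were 2 shared regions, and 1 gene start, that of Hoxa3, had a region within 1000 bases. The region nearest to Hoxa9 ended 4959 bases from its start (chr6:52221364-52222411), with a fold of 10.2 and 8.06 and a pileup of 142 and 57. The other region of the cluster (chr6:52211328-52212373) had a fold of 8.89 and 8.41 and a pileup of 66 and 32. Whether reads of the introduced HOXA9 sequence reached these lists was not tested.

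Genes of the LSD1-CoREST complex, a histone demethylase and its partners, were open in 9 of 9 counted cases. All 9 have CpG-rich windows, with an observed over expected CpG ratio of 0.5 or more, a class in which 79.3% of all coding genes were open. Kdm1a, which encodes LSD1, had a fold of 9.09 and 9.01 and a pileup of 273 and 171. Growth-factor and cytokine receptors were open in 19 of 20 cases, and 18 of the 20 had distal regions. Kit, the receptor of the stem cell factor in the medium, had a pileup of 605 and 297 and a fold of 6.75 and 6.28. Flt3, a receptor of early progenitors, had 679 and 377 fragments with a fold of 6.73 and 6.90. Csf3r, the receptor for the granulocyte growth factor, was low at its start with 65 and 49 fragments (fold 5.99 and 7.38). Csf1r, the macrophage growth-factor receptor, had 63 and 49 (fold 1.896 and 2.62). A region 3.04 kb downstream of the Csf1r start, inside the gene, had 211 and 120 (fold 6.33 and 6.34). The receptor that was not open was Il5ra, which serves eosinophils. Its nearest shared region lay 19728 bases away, but a peak called in replicate 1 only covered its start (fold 4.14, pileup 22), so with the peaks of replicate 1 alone all 20 receptors were open.

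Primary granule genes were open in 8 of 10 cases, at low folds. Their median was 4.10 and 4.12, against 8.33 and 8.11 over all open coding genes. Most of them had CpG-poor windows, and in that class the 7 open granule genes had a median of 3.85 and 3.97, against 6.56 and 6.34 over all open coding genes of the class. The median pileup of all 8 open granule genes was 263 and 138 fragments, against 384 and 207 over all open coding genes. Over regions at open CpG-poor windows it was 185.5 and 105. Mpo, myeloperoxidase, had a fold of 4.35 and 3.97 with 3 summits in each library and a pileup of 186 and 93. Ctsg, cathepsin G, had 2.97 and 3.02 with 274 and 164 fragments, and a stronger region 2.95 kb upstream with 522 and 275. Ms4a3, a gene of granulocyte-monocyte progenitors, had 6.64 and 5.61 with 84 and 49. At Prtn3, proteinase 3, the region nearest to the start began 995 bases downstream, inside the gene and just within the promoter window, and had a fold of 2.01 and 1.70 despite a pileup of 265 and 127. The local background there was 132 and 74.4 fragments, among the surroundings of a region 1.68 kb upstream of the start (chr10:79877257-79878318) with a pileup of 476 and 296. That region too had a modest fold of 3.70 and 4.10, at a local background of 128 and 71.5 fragments.

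Counts for genes of more mature and of other cells ranged widely. Beside them, 53.8% of all coding genes were open, and 19.5% of those without a CpG-rich window. Late neutrophil genes were open in 6 of 20 cases. Camp, an antimicrobial granule peptide, had 60 and 25 fragments, and Fcnb, a ficolin, had 119 and 74. S100a8 had no shared region nearer than 15756 bases, but a peak called in replicate 2 only covered its start (fold 3.78, pileup 12). Such a peak of a single library also covered the start of Cxcr2 and lay within 1000 bases of that of Ncf1. With the peaks of replicate 2 alone 8 of the 20 late neutrophil genes were open, and with those of replicate 1 alone 7. Of the monocyte and macrophage genes 10 of 16 were open, among them the chemokine receptor Ccr2 (220 and 150 fragments) and Cd68 (258 and 135). The counts were 2 of 10 for erythroid genes, 4 of 11 for megakaryocyte, 3 of 11 for mast cell, basophil and eosinophil, and 4 of 9 for dendritic cell genes. They were 6 of 10 for B cell, 4 of 15 for T and NK cell, and 1 of 11 for stromal and endothelial genes. Genes of unrelated tissues were open in 3 of 26 cases (Apoa1, Neurog2 and Pou5f1), with pileups of 20 to 65 fragments in replicate 1 and 14 to 38 in replicate 2. Open starts of other lineages included Klf1, an erythroid factor with a region 601 bases from its start (422 and 274 fragments), and Gata3, a T cell factor (275 and 148). Housekeeping genes were open in 13 of 13, cell cycle genes in 15 of 15, and genes of nucleotide and lipid synthesis in 12 of 13. The share of other cell types in the cultures cannot be told apart from open chromatin in the progenitors.

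**Figure D5:**
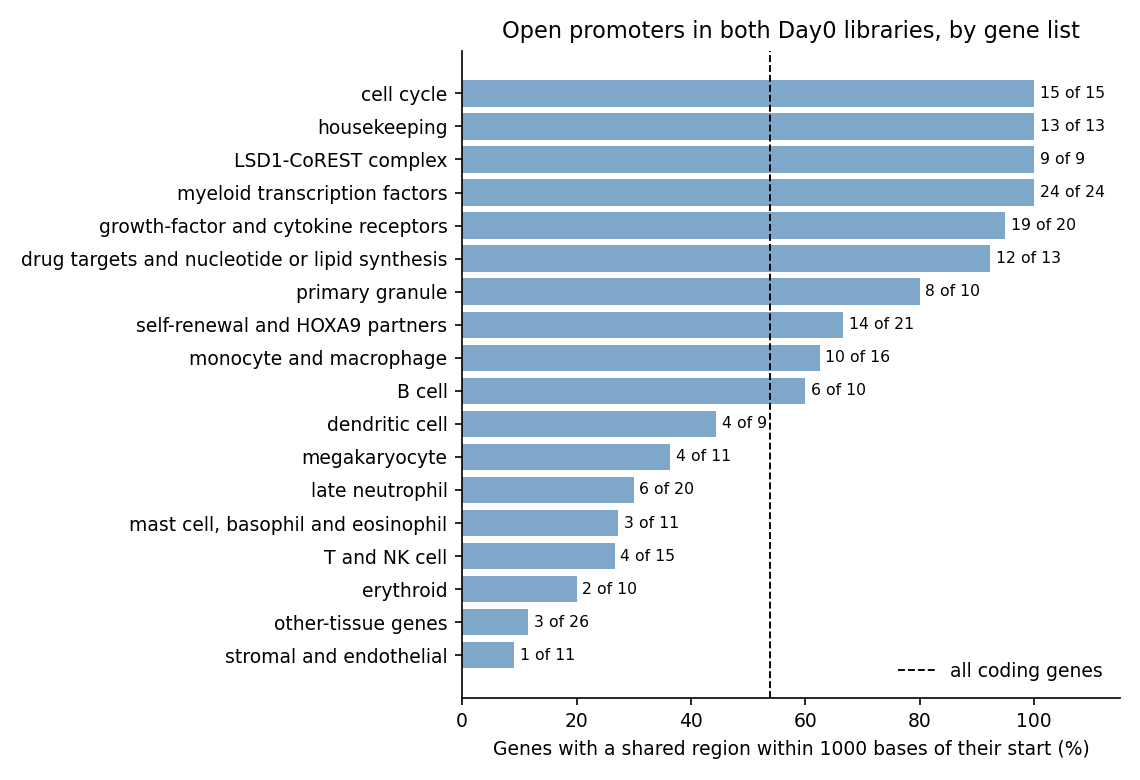
Percentage of the counted genes of each list with a shared region within 1000 bases of their start, with the number open of the number counted beside each bar and a dashed line at all coding genes (53.8%). Lists to the right of the line are transcription factors, receptors, general cell functions, self-renewal, LSD1-CoREST, primary granule, monocyte and B cell genes. To its left are late neutrophil, erythroid, megakaryocyte, mast cell, dendritic cell, T and NK cell, stromal and other-tissue genes.

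Promoter base composition divided the lists. A window was called CpG-rich when its observed over expected CpG ratio was 0.5 or more. Among all coding genes with a CpG-rich window 79.3% were open, and among those without one 19.5%. Of the 24 myeloid factor genes 22 were CpG-rich and open, and the other 2 (Irf4 and Gfi1b) were open as well. Most granule, monocyte and lineage genes had CpG-poor starts, so the second share is the one to read them against. Primary granule genes without a CpG-rich window were open in 7 of 9 cases, monocyte and macrophage genes in 10 of 15, receptors in 6 of 7 and B cell genes in 5 of 8. Among the other CpG-poor lists, late neutrophil genes were open in 6 of 20 cases, megakaryocyte genes in 4 of 11 and mast cell, basophil and eosinophil genes in 3 of 11. The T and NK cell list had 1 of 10, the erythroid list 1 of 9 and other tissues 2 of 20. Dendritic cell genes without a CpG-rich window were open in 2 of 6 cases, and stromal and endothelial genes in 1 of 8. The open CpG-poor B cell genes were Cd79a, Igll1, Rag2, Cd22 and Blnk. Igll1, a surrogate light chain, had 255 and 142 fragments, and Rag2, a recombinase subunit, 109 and 56. Of the 19 CpG-rich self-renewal genes 14 were open, and those that were not were Mecom and the cluster neighbours Hoxa5, Hoxa10, Hoxa11 and Hoxa13. Of the counted housekeeping, cell cycle and synthesis genes, 12 of 13, 14 of 15 and 12 of 13 were CpG-rich, and all of these were open, so their counts are read against the 79.3%.

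The letters in open windows differed from those in windows with no called peak. Of 21263 RefSeq promoter windows, 10695 (50.3%) overlapped a shared region and 10330 overlapped no called region. The median GC content was 61.7% in open windows and 49.7% in windows not called, and 84.1% and 24.1% of them were CpG-rich. Exact matches on either strand were counted. The ETS motif CCGGAAGT, bound by factors such as GABPA, stood in 9.41% of open windows against 0.803% of those not called and 5.15% of all windows. The share was 10.7% against 1.45% among CpG-rich windows and 2.70% against 0.599% among CpG-poor ones. Open regions whose window held these letters had a median fold of 9.40 and 9.21, against 8.15 and 7.92 for those without. The NRF1 motif GCGCATGCG stood in 4.10% against 0.591% (2.35% of all windows). The NRF1 share was 4.83% against 1.89% among CpG-rich windows and 0.294% against 0.179% among CpG-poor ones. The CpG-poor shares rest on few matches, out of 1702 open windows and 7840 not called. The SP/KLF motif GGGGCGGGG stood in 23.4% against 6.96% (15.4%), but in 26.3% against 20.8% of CpG-rich windows and 7.87% against 2.56% of CpG-poor ones. The ETS and PU.1 letters end alike, but no stretch can match both.

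The PU.1 motif GAGGAAGT stood in 3.42% of open windows against 2.80% of those not called (3.13% of all). The share was 2.57% against 1.16% among CpG-rich windows and 7.93% against 3.32% among CpG-poor ones. In a shorter stretch of the window, the shortest searched, it was 1.53% against 1.54%. Mpo has such a match 224 bases before its start. The Elane window, which no shared region overlapped, has one too, 85 bases before the start, as well as 2 matches to the MYB motif AACNGCC, so the letters were not limited to open windows. MYB letters stood in 13.7% against 10.9% of windows (12.3% of all), and MEIS letters GCTGTCA in 6.22% against 4.93% (5.60%). The CTCF motif CNAGGNGGC had 13.3% against 6.48% (9.96%), and Cebpa has one 53 bases before its start. Within the classes CTCF letters had 14.2% against 12.7% of CpG-rich and 8.52% against 4.49% of CpG-poor windows. The E-box CACGTG had 10.6% against 4.90% (7.84%), with 11.4% against 9.88% among CpG-rich and 6.52% against 3.32% among CpG-poor windows. The NFY motif CCAATNAG had 10.1% against 6.37% (8.21%).

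The other 7 motifs were less common in open windows. The PBX-HOXA9 letters TGATTTAT stood in 0.262% of open windows against 1.39% of those not called (0.814% of all). The share was lower in open windows within both base compositions, with 0.256% against 0.643% among CpG-rich and 0.294% against 1.63% among CpG-poor windows. The shares in open windows rest on few matches, out of 8993 CpG-rich and 1702 CpG-poor open windows. The C/EBP motif TTGCNNAA had 7.88% against 12.5% (10.2%), but the order turned round among CpG-rich windows, with 6.99% against 6.63%, and was 12.6% against 14.4% among CpG-poor ones. RUNX letters TGTGGTT had 3.64% against 5.82% (4.71%) and AP-1 TGANTCA 4.37% against 9.64% (6.99%). GATA letters AGATAAG had 1.51% against 3.81% (2.64%), the IRF motif GAAANNGAA 6.84% against 9.48% (8.15%) and the ETS-IRF letters GGAANTGAA 1.78% against 2.31% (2.04%), the last turning to 0.813% against 0.600% in that shortest stretch. For RUNX, IRF and ETS-IRF the order turned round within both CpG classes, as for RUNX with 2.87% against 2.29% among CpG-rich and 7.70% against 6.94% among CpG-poor windows. These counts describe promoters only, and distal regions were not searched.

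The promoters with the highest folds were a mixed set. H4c17, a histone gene, led with a fold of 31.9 and 26.2 and a pileup of 335 and 150. Ermard followed with 20.5 and 23.0 (113 and 78 fragments), at a local background equal to the smallest of each library. Sdha, a subunit of succinate dehydrogenase, had 15.3 and 14.1, and Sdhaf4, an assembly factor of the same enzyme, 13.8 and 15.04. Setdb1, a histone methyltransferase, had 15.7 and 13.3. The other 5 were Gm14325, 2310009B15Rik, Cep43, Zfp729a and Gm14326.

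Outside promoters, the region with the highest fold was 387 bases wide and lay nearest to Limd1 (chr9:123461797-123462183), with a fold of 34.3 and 35.5 and a pileup of 2099 and 1805. The second, 299 bases wide in Gphn (chr12:78350873-78351171), had a fold of 29.4 and 30.8 and a pileup of 412 and 352. Both pileups were 1.16 and 1.17 times as high in replicate 1 as in replicate 2, where the depths differed 1.86-fold, and both regions were under 500 bases wide, as 7.81% of shared regions were. The remaining 8 regions, nearest to Fam32a, Slc36a1, Gm40892, Gm52481, Sfpq, Gm15319, Tmem196 and Cnot2, were 732 to 2104 bases wide.

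The widest regions had low folds, high pileups and many summits. They were at the starts of Pcdh7 (4765 bases), Cpt1a (4535 bases) and Mxi1 (4289 bases), within Bcor (4748 bases) and 10629 bases from Rpl38 (4518 bases), with folds of 2.69 to 4.65 in replicate 1 and 2.62 to 4.16 in replicate 2. Pileups of these widest regions were 218 to 697 fragments in replicate 1 and 127 to 390 in replicate 2. The medians over shared regions were 91 and 52. Local backgrounds of the widest regions were 70.9 to 177 fragments in replicate 1. The regions at Pcdh7, Mxi1, Bcor and Rpl38 each joined more than 1 peak of a library. Over all shared regions, 98.5% held 1 peak of each library. Summits of joined peaks were added up. Bcor, a corepressor gene, also had the most summits, 6 in replicate 1 and 10 in replicate 2. Others with many were Zfp703 with 7 in each library, Lzts2 with 5 and 9, and Rtn4rl2 with 6 and 7.

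The genes with the most nearest regions were Zfp386 (50) and Adam6a (36), followed by Bcl2l11 (34), a regulator of cell death, Ahi1 (27), Irs2 (27), Runx1 (27), Foxp1 (26), Gm5820 (26), Bcor (25) and Pik3r1 (25). Only protein-coding genes could be the nearest gene, which leaves out receptor gene segments. The regions nearest to Zfp386 spread over 1117 kb of chromosome 12, and those nearest to Adam6a over 965 kb. They lay in or beside the immunoglobulin heavy-chain locus Igh. Its 2751 kb held 86 shared regions with a median fold of 6.04 and 5.97 and a median pileup of 49 and 28.5. The light-chain locus Igk held 13 regions over 3171 kb and Igl held 0 over 234 kb. The T cell receptor loci held 15 (Tcra, 1796 kb), 13 (Tcrb, 667 kb) and 2 (Tcrg, 178 kb). Per 100 kb this was 3.13 regions for Igh, 1.95 for Tcrb and 0.41 for Igk, and the rate over the genome was not computed. Chromosome 12 had the most shared regions per coding gene (2.88), and the X chromosome the fewest apart from the Y (839 regions, 0.87 per coding gene, 36.1% of them promoters). The Y chromosome held 3 shared regions.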

How the data were processed

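ATAC-seq peak lists of 2 untreated day 0 libraries were used. The build was mm10, and MACS2 2.1.2, Bowtie2, DiffBind, Picard 2.18.26, Trimmomatic 0.38 and SAMtools 1.9 are listed, per the submitters' processing notes. Settings, order and any shift of insertion sites are not given in the sources used here, nor is the filter applied to the lists. The deposited lists, called per library, hold for each summit the fold ratio over local background, the -log10 of its p-value and the -log10 of its q-value, and every listed -log10 q was at least 2.

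Summits with the same start and end were taken as 1 peak, peaks of both libraries sharing at least 1 base were joined, and the highest summit gave a region's fold. Pileup and background were solved from fold and p-value, taking fold as pileup plus 1 over background plus 1 and p as a Poisson upper tail, and 100% of pileups came out whole (tolerance 0.001 in -log10 p); the solution was tested on simulated data. Gene starts came from RefSeq promoter entries (17492 genes), or from the strand in 5 of the authors' deposited tables with the RefSeq gene end (2182 genes); for 2213 genes with no strand the nearer end was used. List counts use the first kind. Windows within 1000 bases of a start are called promoters. No genome was used, so the planned motif search at summits was replaced by one in promoter windows. Of the list genes, those with no RefSeq match (Ahsp and Tpsab1) were not counted.

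All members of 18 gene lists could be named, with the 10 highest folds at and outside promoters, the 5 widest regions, the 5 with most summits, and the 10 genes with most regions; 1 of these results is not reported here. The regions, lists and motifs were chosen with earlier results of these data known; nothing was tested between groups, since 1 group of 2 libraries gives no contrast. Alternatives were the overlap, the q threshold, each library alone, the promoter window, the summit average and the motif window. Python 3.11.15 with pandas 2.3.3, numpy 2.4.6, scipy 1.17.1 and matplotlib 3.10.9 was used.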

Additional observations from a re-analysis of the deposited data

How the results depend on the processing

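No paired analysis was possible because the day 0 libraries form a single group with nothing to pair. The number of shared regions, the number of genes with an open promoter (9414) and the number of motifs more common in open windows (9 of 16) stayed within 1.5 times their values under every alternative run. In the shortest motif window the 9 were not the same motifs: PU.1 turned to less common (1.53% against 1.54%) and ETS-IRF to more common (0.813% against 0.600%). Folds here are medians over regions, after the folds of both libraries were averaged within each region. With a -log10 q of 10 or more, the median fold was 6.81 in place of 5.73 and the median width 1150 bases in place of 1023. The mean number of summits was then 1.23 in place of 1.299, and the promoter share 34.5% in place of 25.8%. A reciprocal overlap of 50% gave a fold of 5.96, and averaging the summits of a region 5.41. Using all peaks of a single library (without replicate 1 or without replicate 2) gave folds of 5.05 to 5.52, widths of 776 to 840 bases, 1.26 summits in both cases, and promoter shares of 21.0% to 24.3%. A promoter window of 2500 bases gave a share of 29.0%. RefSeq promoter entries alone, an alternative chosen after seeing the data, gave 21.8% with chromosome 18 left out. Of 108 recounts of open promoters in the gene lists, 103 stayed within 1.5 times and 5 moved further, in the erythroid, mast cell, stromal and other-tissue lists, where 1 to 5 genes were open. Shorter motif windows, the longer of them chosen after seeing the data, lay within the promoter windows, and the widest planned window, longer than the RefSeq entries, was not run. Depth limits what the lists can hold: the lowest pileups called were 14 fragments in replicate 1 and 10 in replicate 2.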

Other observations

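Of 1005 RefSeq miRNA hairpins, 106 (10.5%) overlapped a shared region, and most of these, 66, did so at the promoter region of a coding gene. Beside these counts, 50.3% of RefSeq promoter windows overlapped a shared region, and 25.8% of shared regions were promoters. The share to be met at hairpins from their position alone was not tested. Hairpins outside promoters included Mir142 (pileup 436 in replicate 1 and 240 in replicate 2, fold 2.97 and 2.71), which is known as a blood-cell miRNA. Others were Mir23a, Mir27a and Mir24-2, which lay together in 1 region of 2755 bases (chr8:84207906-84210660) (pileup 245 and 135, fold 3.02 and 2.88). Mir155, known for roles in immune cells, overlapped a region with a low pileup of 31 in replicate 1 and 17 in replicate 2 (fold 4.64 and 4.59). Mirlet7i overlapped one with a pileup of 464 and 250 (fold 6.25 and 6.24).

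The 3 regions with the highest fold called in replicate 1 only lay nearest to Smim17, Zfp386 and Adgrl2, with folds of 12.9, 11.7 and 11.5. Their pileups were 103, 64 and 65 fragments. The 3 called in replicate 2 only lay nearest to Cyp2a5, Rnf157 and Adgrf1, with folds of 9.30, 8.46 and 8.14. Their pileups were 31, 82 and 27 fragments. Ranked by pileup rather than fold, an order chosen after seeing the data, the first promoters were those of Ddx54 (1223 and 640 fragments in replicates 1 and 2), Hjurp (1145 and 662), Tacc3 (1127 and 670) and Paics (1171 and 641).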
